A study of Mus musculus with 4 samples.

Results

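Prostaglandin synthesis genes were examined in the hippocampus of mice after global cerebral ischemia (GCI), with and without aromatase in forebrain neurons. The set held 8 of the 22609 gene symbols of the count tables and was chosen by name: Pla2g4a, Ptgs1, Ptgs2, Ptges, Ptges2, Ptges3, Ptgds and Alox5ap. All 8 were found and all 8 had enough counts to be tested. There were 2 libraries of FLOX+GCI mice, the controls, which carried the loxP-flanked aromatase gene Cyp19a1, and 2 libraries of FBN-ARO-KO+GCI mice, in which Cre under the CaMKIIα promoter deletes Cyp19a1 in excitatory neurons of the forebrain. All mice were ovariectomized females, 3 to 5 months old by the methods of the study. The ovaries had been removed 1 week earlier, both common carotid arteries were then closed for 20 min, and RNA was taken from whole hippocampus 24 h after the blood returned. Every library therefore came from an ischemic, ovariectomized mouse, other cells than forebrain neurons kept their aromatase gene, and no unoperated or sham library was part of the comparison. The number of animals behind a library is not stated, so the p-values measure the spread between 2 libraries of a group. With so few libraries, the test estimated this spread for each gene with help from all genes tested.

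Prostaglandins are short-range lipid signals made on demand from arachidonic acid. The phospholipase cPLA2α, encoded by Pla2g4a, frees arachidonic acid from membranes, the cyclooxygenases COX-1 (Ptgs1) and COX-2 (Ptgs2) turn it into the unstable intermediate PGH2, and terminal synthases convert PGH2 into single products such as PGE2 (Ptges, Ptges2, Ptges3) and PGD2 (Ptgds). Alox5ap encodes FLAP, which presents arachidonic acid to 5-lipoxygenase for the competing leukotriene branch. In the brain Ptgs2 is expressed by excitatory neurons and induced by synaptic activity and injury, Ptgs1 and Alox5ap are mostly microglial, and Ptgds is a main product of the leptomeninges, the choroid plexus and oligodendrocytes.

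The groups were first checked in the whole tables. Between 24333396 and 33076795 reads per library were assigned to genes, so that 3 counts, taken as the detection floor, corresponded to 0.0907 to 0.123 CPM, the counts scaled to a fixed total per library. This floor covers counting error only. Cyp19a1 had 4 and 1 counts in the FLOX+GCI libraries and 2 and 2 in the FBN-ARO-KO+GCI libraries, which is at the floor in whole hippocampus and cannot check the genotype. The summed CPM of 9 excitatory neuron markers, 8481 and 8738 against 8526 and 8385, was that of a tissue rich in these neurons. FLOX+GCI replicate 2 stood apart for genes of reactive glia, whose 16 markers summed to 1556 CPM there against 749 to 910 in the other libraries. The genotype difference also followed base composition, with a Spearman correlation of -0.555 between a gene's log2 fold change and the GC content of its transcript over 13885 genes, all from the same 4 libraries. The difference between the 2 FBN-ARO-KO+GCI libraries followed GC content nearly as closely (-0.48), and that between the FLOX+GCI libraries did so less (0.101).

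Short stretches around the start sites are shown because the knock-out removes estrogen made by neurons. Estrogen receptors bind an inverted repeat of GGTCA with 3 bases between the repeats, CREB binds CGTCA as the core of its response element, and CACGTG is the E-box of basic helix-loop-helix factors. RefSeq promoters (GRCm38.p6, 250 bases before and 50 after the start, with the first listed start where a gene had several) were at hand for 7 of the 8 genes, all but Alox5ap. These coordinates are not those of the count tables, which were made on mm9. Both strands were searched, and the capitals below mark every match to these motifs or to the TATA box, TATAAA.
Ptgs1 (chr2:36230402-36230430, + strand): gaggaagttggcGGTCAgcctgtcagagg
Ptges (chr2:30903314-30903342, - strand): agtgggcgggggTGACCgcctactcagga
Pla2g4a (chr1:149961479-149961507, - strand): caggaccagttaGGTCAcatgtttttaaa
Ptgs2 (chr1:150100035-150100063, + strand): tcaccactaCGTCACGTGgagtccgcttt
Ptges2 (chr2:32395801-32395829, + strand): ccatttccgcgaCACGTGgtttccaaggc
Ptges3 (chr10:128058981-128059009, + strand): ggcattttgctgCGTCAccagccgccgcc
GGTCA was found in 3 of the 7 promoters and in 40.5% of the 32851 promoters of the table. CGTCA was found in 2 of 7 and in 20.8% of all, and CACGTG in 2 of 7 and in 7.15% of all. In Ptgs2 the CREB core and the E-box overlapped. TATAAA (13.6% of all promoters) and the full inverted repeat (0.07%) were in none of the 7 windows. A match is a run of letters and not a measured binding site.

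To ask whether loss of neuronal aromatase changed these genes after ischemia, the 2 FBN-ARO-KO+GCI libraries were compared with the 2 FLOX+GCI libraries over all genes, with the quasi-likelihood test of edgeR and p-values adjusted by Benjamini-Hochberg over all of them. No prostaglandin synthesis gene passed an adjusted p of 0.05, and the smallest adjusted p was 0.262. That threshold was passed by 0.0138% of the 14527 genes tested, that is by 2 genes. At an unadjusted p under 0.05, 1 of the 8 genes (12.5%) was called, Ptges3, against 16.5% of all genes. Ptges3 was called as higher, and 8.72% of all genes were. An exact two-sided permutation test of 2 libraries against 2 cannot give a p below 1 in 3, so none was used. With DESeq2, 0 of the 8 genes passed as well, and 6 of them were given no adjusted p.

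Of the 8 genes, 6 had a lower and 2 a higher estimate in FBN-ARO-KO+GCI libraries. Their median log2 fold change was -0.17, against -0.01 over all genes tested, and their median absolute log2 fold change was 0.19 against 0.16. For 4 of the 8 genes (50%) the groups did not overlap, which was so for 51.8% of all genes. Ptgs1, Ptges and Ptges2 were lower in both FBN-ARO-KO+GCI libraries, a pattern that 25.8% of all genes showed, and Ptges3 was higher in both, as were 25.9% of all genes. The shares of the 8 genes were thus close to the background of the tables. In bulk tissue fewer cells of a type and less RNA per cell cannot be told apart.

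**Figure D1:**
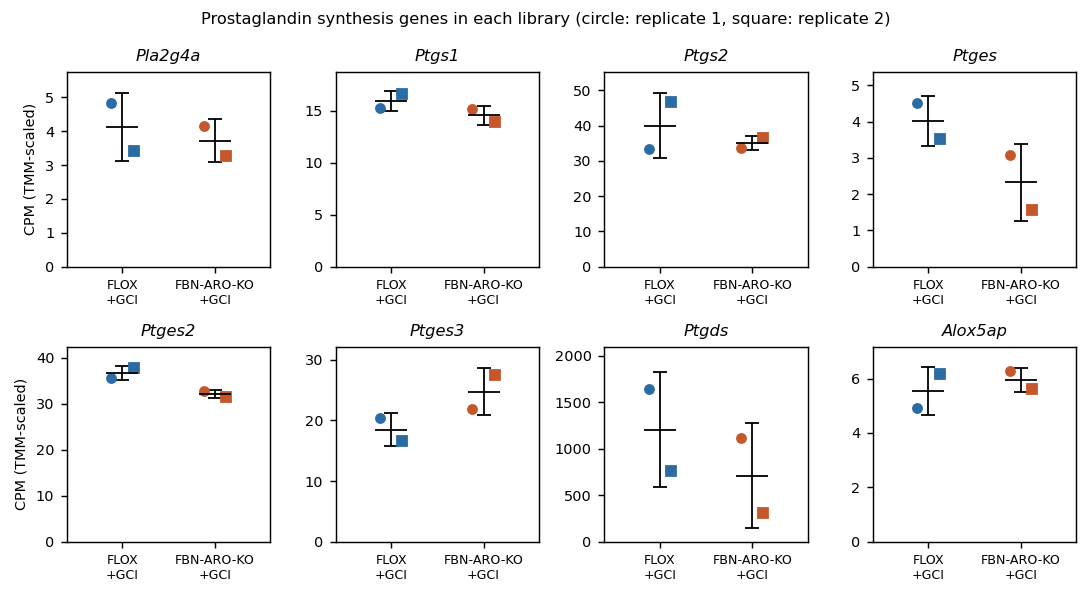
CPM (TMM-scaled) of each gene in each library, drawn from 0, with circles for replicate 1, squares for replicate 2, and the mean and SD of the 2 libraries of a group in black. Ptgds spanned 311 to 1639 CPM, with 1 FLOX+GCI library between the 2 FBN-ARO-KO+GCI libraries, while Ptgs1 and Ptges2 varied by at most 1.2-fold over the 4 libraries.

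Pla2g4a, the phospholipase that starts the pathway, stood at 4.83 and 3.41 CPM in FLOX+GCI libraries, against 4.16 and 3.28 CPM in FBN-ARO-KO+GCI libraries. Both groups had a higher and a lower library, so that they overlapped, and the estimated log2 fold change was -0.14 (SE 0.25, edgeR adjusted p = 0.786). Its estimate turned to 0.13 without FLOX+GCI replicate 1, so that no direction can be given. The gene lies on the minus strand at chr1:151676748-151808420 (mm9).

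Ptgs1, the constitutive cyclooxygenase, stood at 15.2 and 16.6 CPM in FLOX+GCI libraries, against 15.2 and 13.9 CPM in FBN-ARO-KO+GCI libraries. The nearest libraries of the 2 groups were almost equal. On the log2 scale the difference was -0.13 with a 95% interval of -0.41 to 0.16 (adjusted p = 0.612). The summed CPM of 12 microglial markers, none of which was at 0, lay between 556 and 571 in FLOX+GCI libraries, and between 539 and 587 after the knock-out. The gene lies at chr2:36085946-36107792 (mm9, + strand).

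Ptgs2, the inducible cyclooxygenase, was read 839, 1148, 1112 and 1066 times in FLOX+GCI replicates 1 and 2 and FBN-ARO-KO+GCI replicates 1 and 2. In CPM this was 33.5 and 46.6 against 33.5 and 36.4, so that only FLOX+GCI replicate 2 was high and the other libraries were within 3 CPM of each other. This gave a log2 fold change of -0.20 (SE 0.15, adjusted p = 0.527). It was -0.41 without FLOX+GCI replicate 1 and 0.059 without FLOX+GCI replicate 2, the library that also had the high sum of reactive glia markers. The Ptgs2 transcript has a GC content of 40.53%. With a correction for GC content and length, and all 4 libraries, the log2 fold change was -0.39 (edgeR adjusted p = 0.442). The part of reactive glia in the Ptgs2 value was not tested. The 15 activity-induced genes, which like Ptgs2 respond to synaptic activity, summed to 941 and 794 CPM in FLOX+GCI libraries, against 831 and 788 CPM in FBN-ARO-KO+GCI libraries. Of these 15 genes, 12 had a lower estimate in FBN-ARO-KO+GCI libraries, as had 51.3% of all genes tested. In edgeR, 8 of the 15 had an unadjusted p under 0.05, against 16.5% of all genes, and the median log2 fold change was -0.26. These counts and the median are without the GC and length correction, although the genotype difference over all genes followed GC content. The part of GC content in them was not tested. Per kilobase of transcript, Ptgs2 was 1.52 and 1.94 times Ptgs1 in FLOX+GCI libraries, against 1.53 and 1.81 times in FBN-ARO-KO+GCI libraries. Ptgs2 lies at chr1:151947254-151955140 (mm9, + strand).

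Ptges, the microsomal PGE2 synthase that is induced together with COX-2 in inflammation, had few reads. It was read 113 and 87 times in the controls, against 102 and 46 times in FBN-ARO-KO+GCI libraries. Scaled, these were 4.51 and 3.53 CPM against 3.08 and 1.57 CPM, and both FBN-ARO-KO+GCI libraries were below both FLOX+GCI libraries. The estimate was a log2 fold change of -0.78 (SE 0.33, 95% interval -1.56 to 0.00, unadjusted p = 0.0504, adjusted p = 0.303). It was -0.38 without FBN-ARO-KO+GCI replicate 2 and -1.36 without FBN-ARO-KO+GCI replicate 1. The gene lies on the minus strand at chr2:30744991-30785383 (mm9), and 12.8% of the 50-base windows of its transcript occur elsewhere in the genome as well, mostly at chr9:48007489-48008178.

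Ptges2 encodes a second membrane-bound PGE2 synthase. Its values of 35.7 and 37.8 CPM in FLOX+GCI libraries lay above the 32.8 and 31.5 CPM of the FBN-ARO-KO+GCI libraries, and they differed little within a group. This amounted to a log2 fold change of -0.19 (SE 0.09, unadjusted p = 0.0712, adjusted p = 0.335). The Ptges2 transcript has a GC content of 59.64%, against a median of 50.59% over the genes tested. With a correction for GC content and length its log2 fold change was 0.058 (adjusted p = 0.816). The direction of Ptges2 therefore depended on this correction. It lies at chr2:32251416-32258259 (mm9, + strand).

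Ptges3, which encodes the HSP90 co-chaperone p23 and is also known as the cytosolic PGE2 synthase, was the gene with the highest estimate. It was read 510 and 409 times in the controls, against 727 and 803 times in FBN-ARO-KO+GCI libraries, or 20.4 and 16.6 against 21.9 and 27.4 CPM. The groups did not overlap, but FLOX+GCI replicate 1 and FBN-ARO-KO+GCI replicate 1 were close. Its log2 fold change was 0.42 (SE 0.15, 95% interval 0.06 to 0.77, unadjusted p = 0.0284, adjusted p = 0.262). It ranged from 0.25 without FBN-ARO-KO+GCI replicate 2 to 0.57 without FLOX+GCI replicate 1, and it was 0.32 with the GC and length correction.

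The reads of Ptges3 were hard to place. The gene lies at chr10:127496010-127514328 (mm9, + strand), inside a long gene model of the chromatin remodelling subunit Baz2a on the same strand over 18283 bp, and 51.2% of the 50-base windows of its transcript, the length of 1 read, occur more than once in the genome. Of the 1951 windows, 999 were repeated in this sense. Only unbroken matches were counted. A window over a splice junction that lies unbroken in 1 pseudogene alone therefore counted as occurring once, and the 999 leave such windows out. The main copy is the pseudogene Gm9769 at chr6:85793856-85795366, which matches 1202 windows of the transcript, those over splice junctions included, and Gm11893 at chr4:25468277-25469353 matches 209. Of the windows centred on a splice junction, 5 lie unbroken in Gm9769, which thus has no intron there. The windows over 2 of these junctions, which would otherwise mark a spliced Ptges3 read, are printed to show this, with the exon before the junction in lower case and the exon after it in capitals.
Ptges3 exon 3 to exon 4: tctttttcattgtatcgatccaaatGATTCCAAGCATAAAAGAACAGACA
Ptges3 exon 5 to exon 6: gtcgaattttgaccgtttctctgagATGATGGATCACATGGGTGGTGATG
The first was found unbroken at chr6:85794135-85794184 and the second at chr6:85794324-85794373 (mm9, + strand). A read over these junctions aligns without a gap in the pseudogene, so the letters do not tell gene and pseudogene apart. HTSeq set aside between 16276853 and 20518156 alignments per library as not unique. How much of Ptges3 was lost in this way, and whether it differed between libraries, was not tested.

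Ptgds, which encodes the lipocalin-type PGD2 synthase that is also secreted into the cerebrospinal fluid as β-trace, was by far the most abundant gene of the set. It was read 41075 and 18836 times in the controls, against 36860 and 9114 times in FBN-ARO-KO+GCI libraries. In CPM these were 1639 and 764 against 1112 and 311, so FBN-ARO-KO+GCI replicate 1 lay between the 2 FLOX+GCI libraries. Its log2 fold change was -0.76 (SE 0.55, 95% interval -2.05 to 0.54, adjusted p = 0.495). Within a genotype the libraries differed 2.15-fold in FLOX+GCI and 3.57-fold in FBN-ARO-KO+GCI, and 1.92% and 0.358% of all genes were as far apart in these pairs. The estimate was -0.10 without FLOX+GCI replicate 1 and -1.20 without the other FLOX+GCI library, and it was -1.95 without FBN-ARO-KO+GCI replicate 1 and -0.11 without replicate 2 of that genotype. Ptgds lies on the minus strand at chr2:25322229-25325566 (mm9).

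The markers of the tissues that make Ptgds were compared with it in each library. The 12 leptomeningeal and fibroblast markers summed to 484 and 246 CPM in FLOX+GCI libraries, against 284 and 145 CPM in FBN-ARO-KO+GCI libraries. All 12 were lower in replicate 2 of FLOX+GCI and 11 of 12 in replicate 2 of FBN-ARO-KO+GCI, and none was at 0. Of these 12 genes, 1 had an unadjusted p under 0.05 between genotypes in edgeR, against 16.5% of all genes, and the median log2 fold change was -1.07. The 7 mural cell markers summed to 291 and 194 against 230 and 134 CPM. The 10 oligodendrocyte markers, in contrast, summed to 4306 and 4803 against 4924 and 5108 CPM. The 12 choroid plexus markers summed to 74.5 and 60.8 against 51.6 and 58.0 CPM, with none at 0. Most of this choroid plexus sum was Kl and Ttr, so it says little about the other markers. Kcnj13 (3.31 and 0.892 against 1.33 and 0.171 CPM) and Aqp1, which had 3 to 20 counts, stood in the library order of Ptgds. The remaining choroid plexus markers did not. Ptgds divided by the leptomeningeal sum was 3.38 and 3.11 in the controls, against 3.92 and 2.14 in FBN-ARO-KO+GCI libraries, a 1.83-fold span where Ptgds itself spanned 5.27-fold. The part of leptomeningeal tissue in the Ptgds value was not tested.

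**Figure D2:**
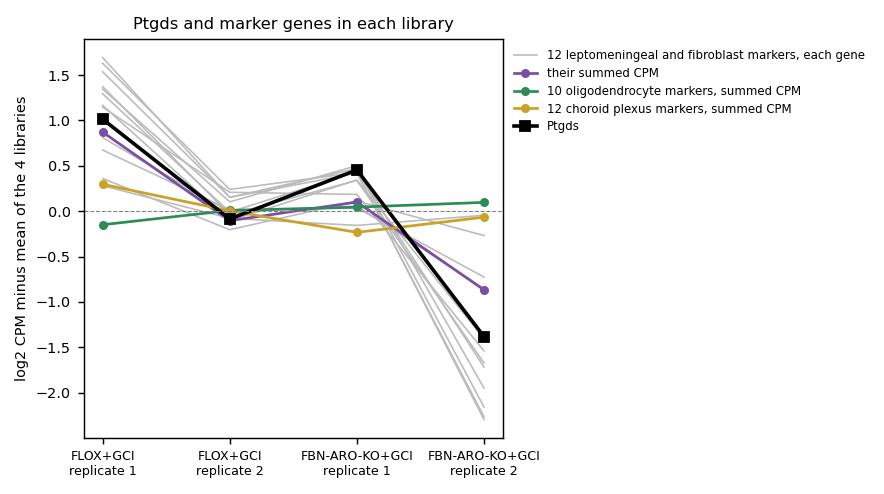
log2 CPM of Ptgds (black squares), of each of 12 leptomeningeal and fibroblast markers (grey lines) and of 3 summed marker lists (coloured) in each library, centred on the mean of the 4 libraries. Ptgds and the summed leptomeningeal markers were highest in FLOX+GCI replicate 1 and lowest in FBN-ARO-KO+GCI replicate 2. The choroid plexus sum was highest in FLOX+GCI replicate 1 but lowest in FBN-ARO-KO+GCI replicate 1, and the oligodendrocyte sum was lowest in FLOX+GCI replicate 1.

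Alox5ap, the activator of 5-lipoxygenase at the entry of the leukotriene branch, stood at 4.91 and 6.17 CPM in FLOX+GCI libraries, against 6.28 and 5.63 CPM in FBN-ARO-KO+GCI libraries. With overlapping groups, its log2 fold change was 0.11 (SE 0.19, adjusted p = 0.795). It was -0.048 without FLOX+GCI replicate 1. Besides the microglial sums given for Ptgs1, 8 markers of neutrophils and monocytes, which also express Alox5ap, summed to 3.19 and 5.76 CPM in FLOX+GCI libraries, against 8.84 and 7.20 CPM in FBN-ARO-KO+GCI libraries. Most of this was Lcn2, which reactive astrocytes make as well, and 5 of the 8 markers were at 0 in some library. Their part in the Alox5ap value was not tested. Alox5ap lies at chr5:150076634-150099621 (mm9, + strand).

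**Figure D3:**
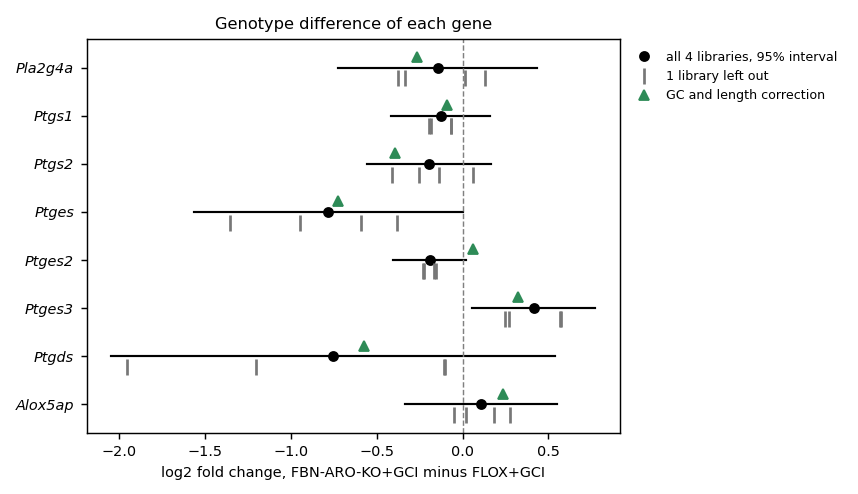
log2 fold change (FBN-ARO-KO+GCI minus FLOX+GCI) of each gene with its 95% interval (black), with the estimate after a GC and length correction (green triangles) and with 1 library left out (grey ticks). Ptges3 is the only gene whose interval lies on 1 side of 0, and the triangle of Ptges2 lies on the other side of 0 from its black point.

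Levels of different genes were compared per length, as CPM per kilobase of transcript. The order of the mean levels in FLOX+GCI libraries was Ptgds (1334), Ptges2 (18.9), Ptgs2 (9.66), Ptges3 (9.24), Alox5ap (6.5), Ptgs1 (5.55), Pla2g4a (1.44) and Ptges (1.1). The ranges over the 2 libraries overlapped for Ptgs2 and Ptges3, for Alox5ap and Ptgs1, and for Pla2g4a and Ptges, so these neighbours were not separated. The place of Ptges3 is uncertain, since its level was taken over the whole transcript although reads from its repeated windows may have been set aside. In FBN-ARO-KO+GCI libraries Ptges3 (12.3) stood above Ptgs2 (8.44), and otherwise the order was the same, with no neighbours overlapping. Ptgds held 0.166 and 0.0774% of all gene counts in the controls, against 0.111 and 0.0303% in FBN-ARO-KO+GCI libraries, and it ranked 1, 16, 5 and 84 of 20099 genes per length in the 4 libraries. Per length it stood 21.3 to 99.1 times above the next of the 8 genes in the same library.

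The genes before and after the synthesis steps were counted from 7 lists of pathway genes, which were chosen with earlier results of these data known. Of 84 listed genes in the tables, 61 were tested. None passed an adjusted p of 0.05 in edgeR. With DESeq2, 2 did (Acsl4 and Gpr17), as did 292 of the 17821 genes it fitted. DESeq2 gave no adjusted p for some pathway genes, Pla2g2f, Cbr3 and Ptgfr among them, so these could not pass. In edgeR, 9 of the 61 (14.8%) had an unadjusted p under 0.05, against 16.5% of all genes. Of these 9, 4 had a higher and 5 a lower value after the knock-out. Over all 61 genes the median log2 fold change was -0.10. The groups did not overlap for 23 of the 61 genes (37.7%), against 51.8% of all genes.

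Among the genes that release arachidonic acid, 1 of 16 was called at an unadjusted p under 0.05, against 16.5% of all genes. This was the secreted phospholipase Pla2g2f, with 6.23 and 6.65 CPM in FLOX+GCI libraries, against 4.68 and 4.06 CPM in FBN-ARO-KO+GCI libraries (log2 fold change -0.56, edgeR adjusted p = 0.248). Among the 12 genes that put arachidonic acid back into phospholipids, 3 had a higher and 9 a lower estimate, where 51.3% of all genes were lower. At an unadjusted p under 0.05, 2 of the 12 were called as higher and 1 as lower. Of all genes, 16.5% were called and 8.72% were called as higher. The arachidonate-preferring acyl-CoA synthetase Acsl4 had 103 and 89.9 CPM against 116 and 148 CPM (log2 fold change 0.45, adjusted p = 0.238), its relative Acsl3 had a log2 fold change of 0.24 (adjusted p = 0.259), and the lysophospholipid acyltransferase Lpcat4 one of -0.22 (adjusted p = 0.297). Acsl4 has a transcript GC content of 39.03%, and its estimate was 0.20 (adjusted p = 0.383) with the GC and length correction and 0.26 without FBN-ARO-KO+GCI replicate 2. With the same correction Acsl3 stood at 0.14 and Lpcat4 turned to 0.042.

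Of the 9 tested genes on the list of further terminal prostanoid synthases, 7 had a lower and 2 a higher estimate. Over all genes tested, 51.3% had a lower estimate. At an unadjusted p under 0.05, 2 of the 9 were called, both as lower, against 16.5% of all genes. Akr1b3, also on this list, had 0 counts in every library and was not tested, and why it had none was not examined. The carbonyl reductase Cbr3 had 14.0 and 13.4 against 11.4 and 10.7 CPM (log2 fold change -0.31, adjusted p = 0.283, and -0.12 with the GC and length correction), and the aldo-keto reductase Akr1b8 had 21 and 42 against 20 and 18 counts (log2 fold change -1.05, adjusted p = 0.290, and -0.46 without FLOX+GCI replicate 2). In the lipoxygenase list 1 of 9 was called, the epidermal lipoxygenase Alox12b with a log2 fold change of 0.45 (adjusted p = 0.296). It was 0.26 without FLOX+GCI replicate 2 and 0.25 without FBN-ARO-KO+GCI replicate 2. Among 7 genes for transport and breakdown none was called. Hpgd, the enzyme that inactivates prostaglandins, had a log2 fold change of -0.21 (adjusted p = 0.535).

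The prostanoid receptor list held 10 genes, with Ptgfrn, a regulator of the PGF2α receptor, counted among them. Ptgfrn was read 523 to 673 times per library, with a log2 fold change of -0.20 (adjusted p = 0.483). Of the 10 genes 6 were tested, and 1 was called at an unadjusted p under 0.05, against 16.5% of all genes. This was Ptgfr, the PGF2α receptor, read 58 and 28 times in the controls, against 29 and 9 times in FBN-ARO-KO+GCI libraries (log2 fold change -1.52, adjusted p = 0.256). With 1 library left out it ranged from -0.91 without FLOX+GCI replicate 1 to -2.48 without FBN-ARO-KO+GCI replicate 1. Ptgdr, the receptor for the PGD2 that Ptgds makes, had 39 and 18 against 31 and 3 counts (log2 fold change -1.1, adjusted p = 0.480). It was -0.29 without FBN-ARO-KO+GCI replicate 2 and -3.43 without FBN-ARO-KO+GCI replicate 1. In CPM, the libraries stood in the same order for Ptgdr as for Ptgds. They also did for the prostacyclin synthase Ptgis, the receptor Tbxa2r and Gstm2, but not for Ptgfr. The 3 counts of Ptgdr in FBN-ARO-KO+GCI replicate 2 are at the floor, and a link between Ptgdr and Ptgds was not tested.

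Of the leukotriene receptors, Gpr17, which is also known as a gene of oligodendrocyte precursors, had the smallest p of all pathway genes. Its values of 57.5 and 68.6 CPM in FLOX+GCI libraries lay below the 93.5 and 81.8 CPM of the FBN-ARO-KO+GCI libraries. This amounted to a log2 fold change of 0.47 (SE 0.11, adjusted p = 0.238). With DESeq2 the adjusted p was 0.0105 for Gpr17 and 0.0177 for Acsl4, and the edgeR adjusted p of Gpr17 was 0.0307 without FLOX+GCI replicate 2 and between 0.191 and 0.815 without any 1 of the other libraries. Cysltr1, the receptor for cysteinyl leukotrienes, had 14 and 19 against 17 and 25 counts (log2 fold change 0.03, adjusted p = 0.978).

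**Figure D4:**
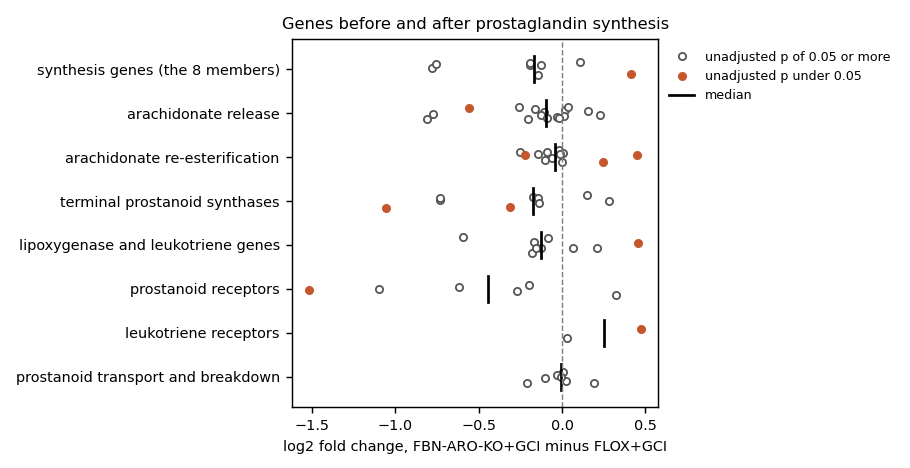
log2 fold change (FBN-ARO-KO+GCI minus FLOX+GCI) of the 8 synthesis genes and of the 61 other tested pathway genes, in rows by list, with filled points for an unadjusted p under 0.05 and a black line at the median of a row. The prostanoid receptors reach from -1.52 to 0.32, whereas the re-esterification genes stay within 0.45 of 0.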

How the data were processed

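RNA-seq counts of whole hippocampus were used from 4 libraries, 2 FLOX+GCI and 2 FBN-ARO-KO+GCI, grouped by their labels. The counts per gene were deposited by the authors after alignment with TopHat2 2.0.8b to mm9 and counting with HTSeq, as the submitters' processing notes list them. Reads were 50 bases, single-end, and whether counting used strand is not given in the sources used here. The 5 HTSeq counter rows were left out of library sizes and tests. They held 43.4 to 45.5% of the counts of all rows. Alignments that were not unique are among these counts, so this is not a share of reads. Genes were filtered with filterByExpr (minimum count 10), scaled by TMM and tested with edgeR 4.0.16 (quasi-likelihood, R 4.3.3), adjusting over all 14527 genes; limma 3.58.1 was loaded with it and DESeq2 1.42.0 was an alternative. The test was checked on simulated counts. Positions and transcript lengths came from the mm9 annotation of the same build (20099 symbols with a transcript). RefSeq promoters were on GRCm38.p6.

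The 8 genes and all lists were chosen with earlier results of these data known. The named genes of each pathway list were the 3 with the smallest unadjusted p, besides any passing an adjusted p of 0.05. For Ptgs2 and Ptgds, the 3 genes most alike were the ones with the smallest root-mean-square difference of centred log2 CPM. The genes Ptgis, Tbxa2r, Gstm2 and Alox12 were named after their values were seen.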

Additional observations from a re-analysis of the deposited data

How the results depend on the processing

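The number of all genes called rose from 2 to 292 with DESeq2 (215 higher, 77 lower), 5 with every gene that had a count and 184 with the replicate block (42 higher, 142 lower), and was 1 with the GC and length correction and 0 with both the block and that correction. It was 193 without FLOX+GCI replicate 1, 127 without FLOX+GCI replicate 2 and 0 without either FBN-ARO-KO+GCI library. The number of synthesis genes called was 1 with the replicate block, Ptgds (log2 fold change -0.93, edgeR adjusted p = 0.00165), and 0 under every other alternative, including the block with the GC and length correction (adjusted p = 0.204 for Ptgds). Of the 61 other pathway genes, none was called in edgeR with all 4 libraries, 2 were with DESeq2 and 0 to 1 with 1 library left out, alternatives added after seeing the data. DESeq2 gave no adjusted p for 6 of the 8 synthesis genes, nor for some of the other pathway genes. The labels tie no replicate number to a shared animal or day, and the deviations of same-numbered libraries correlated at 0.129 over all genes, with only 2 pairs. The number of synthesis genes with an unadjusted p under 0.05 was 3 with library totals only, 2 with every gene that had a count, 4 with the block plus the GC correction, 3 with the replicate block alone, and 0 to 3 with 1 library left out. The sign of Ptges2 turned to 0.058 with the GC and length correction and 0.059 with the block added, and that of Lpcat4 to 0.0418 and 0.0417. Cysltr1 was -0.0083 with library totals only, -0.29 with the GC correction and -0.30 with it and the block. With 1 library left out, the log2 fold change ranged from -0.41 to 0.059 for Ptgs2, from -0.38 to 0.13 for Pla2g4a, from -0.048 to 0.28 for Alox5ap, from -0.37 to 0.36 for Cysltr1 and from -0.26 to 0.075 for Slco3a1. The remaining values of the 8 genes, 89 of 96, kept direction and were not called. Among them are the DESeq2 values of the 6 genes without an adjusted p, which have no side of the threshold. The causes were not tested. A left-out library leaves 1 in its group, which is then assumed to vary like the other group. Depth limits Ptges, Pla2g4a and the receptors, which have few counts.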

Other observations

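The genes whose centred log2 CPM over the 4 libraries was nearest to that of Ptgds, among 12735 genes, were Myh11 (root-mean-square difference 0.05), Alx4 (0.07) and Igf2 (0.10), where the spread of Ptgds itself was 0.89. Myh11 is a smooth muscle gene and Igf2 is expressed in the leptomeninges. Ptgds divided by Myh11, a ratio chosen for its likeness, was 50.6, 49.1, 49.8 and 46.7 in FLOX+GCI replicates 1 and 2 and FBN-ARO-KO+GCI replicates 1 and 2, and divided by Igf2 it was 9.22, 10.4, 11.1 and 10.4. The likeness is a description over 4 libraries.

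The nearest genes to Ptgs2 were Tmem91 (0.01), Prss12 (0.02) and Cdc26 (0.03), where the spread of Ptgs2 itself was 0.19. All were highest in FLOX+GCI replicate 2.

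A fall from replicate 1 to replicate 2 of at least 1.5-fold in both genotypes, a rule chosen after seeing the data, was shown by 230 of 14527 genes tested (1.58%), by Ptgds among the 8 synthesis genes, and by 6 of 61 other pathway genes. These were the prostacyclin synthase Ptgis, the receptors Ptgdr, Ptgfr and Tbxa2r, Gstm2 and Alox12. Of the 12 leptomeningeal and fibroblast markers 10 showed it, as did 2 of 7 mural cell, 1 of 8 tested choroid plexus and 1 of 8 endothelial markers, and 0 of 10 oligodendrocyte and 0 of 12 microglial markers. Ptgis was read 93 and 32 times in the controls, against 74 and 22 times in FBN-ARO-KO+GCI libraries.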
